A study of Mus musculus with 6 samples.

Results

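The genes described here are 10 genes of the Trem2 pathway and of lipid-associated macrophages, taken from the tables by their symbols: Trem2, Tyrobp, Apoe, Gpnmb, Spp1, Lpl, Fabp5, Cd9, Lgals3 and Plin2. All 10 were among the 23935 symbols of the deposited tables, and all 10 passed the filter on low counts that left 16516 genes for testing. The cells were bone marrow-derived macrophages (BMDMs), which are macrophages grown from bone marrow, here for 7 days in M-CSF. All groups shared the labelled treatment of 16 h, with IFN-γ (25 ng/mL) and the bacterial membrane component LPS (10 ng/mL). RNA of 3 libraries from PKM2FL/FL mice, which carry the floxed Pkm alleles, was compared with RNA of 3 libraries from PKM2ΔMAC mice, which carry the floxed alleles and LysM-Cre. LysM-Cre is placed in the Lyz2 locus and is active in macrophages but also in neutrophils and other myeloid cells. No age is given for the donors of these cultures, no untreated BMDMs were analysed here, and the labels do not say how many mice stand behind each library beyond a mouse number.

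Trem2 is a surface receptor of macrophages and microglia that binds lipids and lipoproteins, including those that carry Apoe, and signals through the adaptor Tyrobp (DAP12) to the kinase Syk. Macrophages of obese fat tissue, fatty liver and plaques that take up much lipid are known to express Trem2 together with Gpnmb, Spp1, Lpl, Fabp5, Cd9, Lgals3 and Plin2, a pattern named lipid-associated. PKM2 is a splice form of the pyruvate kinase gene Pkm, the enzyme of the last step of glycolysis. The comparison asks whether these genes differed between PKM2ΔMAC and PKM2FL/FL macrophages. The genotypes differ in the deletion of PKM2, in the presence of Cre and in the level of Lyz2, whose effects cannot be told apart.

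None of the 10 genes was called by edgeR in PKM2ΔMAC against PKM2FL/FL BMDMs when an adjusted p under 0.05 was required. Of the 16516 genes tested, 68 (0.412%) were called. The 68 comprised 47 genes higher (0.285%) and 21 genes lower (0.127%) in PKM2ΔMAC. None of the 10 had an unadjusted p under 0.05 either, a mark that 9.83% of the genes tested passed. DESeq2 also called 0 of the 10, with 1 at an unadjusted p under 0.05, a fit in which the share of all genes at this mark was not taken. Apoe was the only member whose normalised counts did not overlap between the genotypes, and it was lower in PKM2ΔMAC. Over all genes tested, 17.2% did not overlap, with 8.92% higher and 8.32% lower. The members' log2 fold changes lay between -0.29 for Fabp5 and 0.37 for Lpl, 4 above and 6 below 0, with a median of -0.09 beside -2e-04 over all genes tested.

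The libraries held between 49957449 and 54524651 counts. Pkm was lower in PKM2ΔMAC by 0.68 on the log2 scale (adjusted p = 0.00913), with 1189, 1205 and 1189 TPM (transcript abundance relative to transcript length and library size) in PKM2FL/FL and 716, 925 and 724 TPM in PKM2ΔMAC replicates 1, 2 and 3. The call was lost on the TPM values (adjusted p = 0.112 to 0.183) and without any 1 of the PKM2FL/FL libraries (adjusted p = 0.0754 to 0.0993), at values of -0.61 to -0.68. The gene-level count does not separate PKM2 from the other splice form, PKM1. Lyz2 was at 44825 to 49590 TPM in PKM2FL/FL and 70.4 to 87.6 TPM in PKM2ΔMAC. TPM sum to nearly the same total in every library, so less Lyz2 leaves a larger share to other genes in PKM2ΔMAC. TPM of these genes are thereby offset between the genotypes, and the part of this offset in any difference was not tested. PKM2ΔMAC replicate 2 stood apart from the other 2 libraries of its genotype for Pkm and for most of the members, and without it 299 genes were called in place of 68. Members, and named genes whose call it decides, are given with and without it. Macrophage markers were all above 1 TPM in at least 1 library, and their 10 genes summed to 8995 to 9333 TPM in PKM2FL/FL and to 9477 to 10454 TPM in PKM2ΔMAC, with 5 higher, 5 lower and 1 called. Markers of neutrophils summed to 68.6 to 168 TPM in PKM2FL/FL and to 323 to 659 TPM in PKM2ΔMAC, with 8 of 8 higher, 0 called and none below 1 TPM in all libraries. Stromal markers summed to 2011 to 2294 and 2241 to 2697 TPM. The marker sums all carry the offset from Lyz2. The part of these cells in the members' values was not tested, and in bulk RNA fewer cells of a type cannot be told apart from less RNA per cell.

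The label of the treatment was set beside genes known to respond to it. Of 20 genes that LPS or IFN-γ are known to induce, 11 were below 10 TPM in every library. Nos2, which makes nitric oxide, and the cytokine genes Il6 and Il12b were below 1 TPM in every library. The 20 genes summed to between 217 and 291 TPM. Irf1, the highest of them, lay between 47.8 and 52.6 TPM, below every member in every library. Gbp2, an interferon-induced GTPase, followed at 26.8 to 39.1 TPM. None of the 19 that were tested was called with all libraries, and 9 had values above and 10 below 0. Irf1 had a log2 fold change of -0.01 (adjusted p = 0.97) and Gbp2 one of -0.13 (adjusted p = 0.811). Il6, at a mean below 1 CPM, was at 0.53 (adjusted p = 0.767). Among genes with a mean of at least 1 CPM, Ptgs2, the inducible prostaglandin synthase, had the largest value above 0, at 0.70 (adjusted p = 0.526). The cytokine gene Tnf followed at 0.38 without overlap (adjusted p = 0.575). PKM2ΔMAC replicate 2 was the highest library for both, and without it they were at 0.36 and 0.12. The lowest values were those of Acod1, the itaconate-producing enzyme, at -0.75 (adjusted p = 0.334) and of the chemokine gene Ccl5 at -0.48 (adjusted p = 0.542), both without overlap. Without PKM2ΔMAC replicate 2 and without both replicates 2, Acod1 was called lower, at -0.97 (edgeR, adjusted p = 0.0424) and -1.1 (adjusted p = 0.0461). It was 1 of 2 genes of this list called lower in each of these settings. Over all genes, in either direction, 299 and 212 were called there in place of 68. The libraries are called by their labels here, and no untreated library was at hand to measure the response against. With Nos2, Il6 and Il12b below 1 TPM in every library, it is uncertain that the deposited libraries were primed as labelled. This was not tested.

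**Figure D1:**
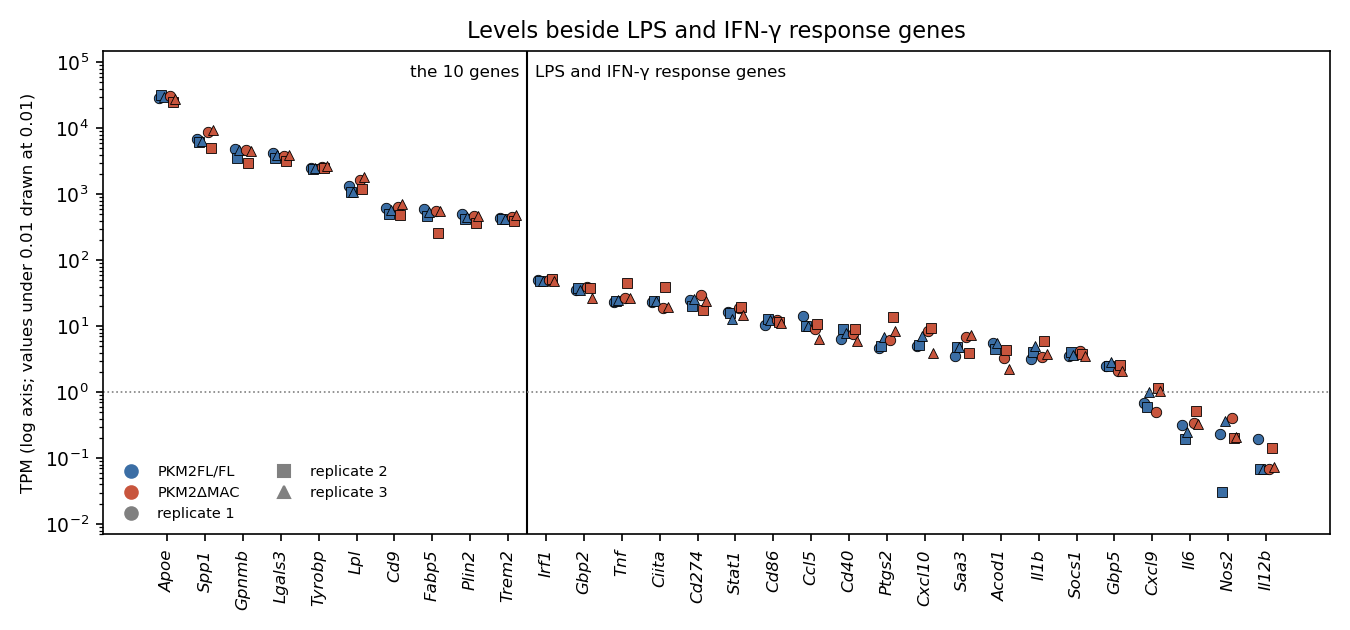
TPM (log axis) of the 10 genes and of 20 LPS and IFN-γ response genes in each library, ordered by mean within each panel; blue is PKM2FL/FL, red is PKM2ΔMAC, and the marker shape gives the replicate. All members lie at or above 258 TPM in every library, whereas Nos2, Il6 and Il12b lie below the dotted line at 1 TPM.

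Trem2 itself (ENSMUSG00000023992.14, chr17:48346401-48354147, plus strand, GRCm38) was at 444, 424 and 425 TPM in PKM2FL/FL replicates 1, 2 and 3 and at 452, 390 and 483 TPM in PKM2ΔMAC replicates 1, 2 and 3. The PKM2ΔMAC values lay on both sides of the PKM2FL/FL values, so that the genotypes overlapped. In CPM (counts relative to the library total, scaled by the TMM factors), the level was 609 ± 21.8 (SD, n = 3) in PKM2FL/FL and 595 ± 80.8 (SD, n = 3) in PKM2ΔMAC. The log2 fold change was -0.04 with a standard error of 0.10 (95% confidence interval, -0.26 to 0.19; edgeR, p = 0.724, adjusted p = 0.943), and the exact two-sided permutation test over the 6 libraries gave p = 0.9, where 0.1 is the smallest p that it can give. The interval corresponds to a fold between 0.835 and 1.14. The sign was not stable: it was positive in 5 of the 17 other settings tried, among them the 3 on the TPM values (0.029). TPM carry the offset from Lyz2 between the genotypes, whose part in this sign was not tested.

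The 250 bases before the Trem2 start in RefSeq (GRCm38.p6) are shown because Trem2 is the gene the others are grouped around, and those of Gpnmb and Spp1 because these 2 varied most among the 5 most abundant members. RefSeq promoter entries were at hand for 7 of the 10 members. Capitals mark matches on either strand to 7 motifs. The E-box was searched as CACGTG, and the core of HIF sites, which the E-box contains, was searched as ACGTG. The M-box of MiT/TFE factors was searched as TCATGTG, and the site of the macrophage factor PU.1 was searched as GAGGAAGT. For AP-1 the search used the letters TGANTCA, for the half-site of nuclear receptors it used the letters AGGTCA, and for the TATA box it used the letters TATAAA.
Trem2, chr17:48346151-48346400, plus strand: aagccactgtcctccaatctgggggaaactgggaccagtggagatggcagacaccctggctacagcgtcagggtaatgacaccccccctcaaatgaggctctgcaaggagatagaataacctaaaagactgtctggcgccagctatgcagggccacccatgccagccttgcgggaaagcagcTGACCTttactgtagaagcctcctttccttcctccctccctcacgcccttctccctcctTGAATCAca
Gpnmb, chr6:49036268-49036517, plus strand: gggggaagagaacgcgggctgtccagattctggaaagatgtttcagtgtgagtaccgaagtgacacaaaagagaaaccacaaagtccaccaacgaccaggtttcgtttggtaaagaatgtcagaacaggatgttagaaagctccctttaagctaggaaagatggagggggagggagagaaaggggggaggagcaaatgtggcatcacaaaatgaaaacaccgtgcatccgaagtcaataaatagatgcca
Spp1, chr5:104434861-104435110, plus strand: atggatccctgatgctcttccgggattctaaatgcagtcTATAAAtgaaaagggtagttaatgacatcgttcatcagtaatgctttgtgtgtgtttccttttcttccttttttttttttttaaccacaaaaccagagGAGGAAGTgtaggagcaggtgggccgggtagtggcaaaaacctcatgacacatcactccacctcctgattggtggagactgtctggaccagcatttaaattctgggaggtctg
The Trem2 window held 1 match to AGGTCA on the minus strand, 68 bases before the start, and 1 match to TGANTCA, 9 bases before it. Of all 32851 promoter windows of this length, 14% held AGGTCA and 6.75% held TGANTCA. In the Spp1 window, 1 match to GAGGAAGT began 113 bases before the start and 1 match to TATAAA began 211 bases before it, letters that 2.44% and 12.4% of all windows held. The Gpnmb window held none of the 7 motifs, which says only that these letters are not in these 250 bases. CACGTG stood in 6.02% of all windows, TCATGTG in 3.25% and ACGTG in 16.6%. Among the other windows, those of Plin2 and of 1 of 3 Apoe starts held matches, and those of Cd9, Lgals3, the other Apoe starts and the second Spp1 start held none. These matches are a description of the letters and no measure of binding.

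Tyrobp (chr7:30413760-30417585), the signalling adaptor of Trem2 and of several other receptors, had the lowest biological coefficient of variation of the members in the edgeR fit. Its level was 2483, 2392 and 2526 TPM in PKM2FL/FL and 2608, 2497 and 2698 TPM in PKM2ΔMAC. The genotypes overlapped, with a log2 fold change of 0.01 and a standard error of 0.06 (interval, -0.13 to 0.14; adjusted p = 0.986). The adaptor was more abundant per length than Trem2 in every library, and the ratio of Trem2 to Tyrobp in TPM ranged from 0.156 to 0.179. The lowest ratio was that of PKM2ΔMAC replicate 2.

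Apoe (chr7:19696109-19699188, minus strand), the apolipoprotein that carries cholesterol out of macrophages and a ligand of Trem2, had the highest TPM of all genes in every PKM2ΔMAC library, and Lyz2 was above it in every PKM2FL/FL library. It was at 29312, 32100 and 29894 TPM in PKM2FL/FL and at 30466, 25316 and 28044 TPM in PKM2ΔMAC. On this scale, which carries the offset from Lyz2, the genotypes overlapped, and the part of the offset in this overlap was not tested. In CPM (scaled by TMM) all PKM2ΔMAC libraries were below all PKM2FL/FL libraries. The levels were 18582 ± 673 (SD, n = 3) in PKM2FL/FL and 16261 ± 1914 (SD, n = 3) in PKM2ΔMAC. The log2 fold change on CPM was -0.19 with a standard error of 0.09 (interval, -0.39 to 0.01; edgeR, p = 0.0589, adjusted p = 0.526), and the exact permutation test gave p = 0.1, the smallest that it can give. In all 17 other settings the value stayed negative, between -0.27 and -0.069. The value nearest to 0 was that without both replicates 2, and the smallest adjusted p in any setting was 0.431.

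Spp1 (chr5:104435118-104441050), which encodes the secreted phosphoprotein osteopontin, was the second most abundant member. Its level was 6876, 6115 and 6412 TPM in PKM2FL/FL and 8760, 5098 and 9389 TPM in PKM2ΔMAC. PKM2ΔMAC replicates 1 and 3 were above every PKM2FL/FL library and replicate 2 was below every one of them. With all libraries the log2 fold change was 0.20 with a standard error of 0.26 (interval, -0.48 to 0.87; adjusted p = 0.865). When PKM2ΔMAC replicate 2 was left out, Spp1 was called higher, with a log2 fold change of 0.44 (edgeR, adjusted p = 0.00477), and when both replicates 2 were left out the value was 0.40 (adjusted p = 0.00424). Without PKM2ΔMAC replicate 3 the value was 0.02. A gene of the annotation that shares 309 exonic bases with Spp1 on the same strand, Gm42793, had between 178 and 436 counts beside 120879 to 213242 of Spp1.

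Gpnmb (chr6:49036546-49070929), a glycoprotein of the lysosome and the cell surface, was at 4808, 3556 and 4720 TPM in PKM2FL/FL and at 4692, 2980 and 4487 TPM in PKM2ΔMAC. In both genotypes replicate 2 was below the other libraries, and the genotypes overlapped. The log2 fold change was -0.17 with a standard error of 0.23 (interval, -0.76 to 0.41; adjusted p = 0.866). It was 0.027 without PKM2ΔMAC replicate 2 and -0.11 without both replicates 2. Compared between libraries of the same number, Gpnmb in CPM was lower in PKM2ΔMAC in each of the 3 pairs. Lgals3 (chr14:47367751-47386160), the galectin that binds damaged lysosomes and glycans of the cell surface, was at 4193, 3582 and 3914 TPM in PKM2FL/FL and at 3756, 3229 and 4001 TPM in PKM2ΔMAC. PKM2ΔMAC replicate 2 was again the lowest library and the other 2 lay within the PKM2FL/FL range. Its log2 fold change was -0.16 with a standard error of 0.11 (interval, -0.42 to 0.10; adjusted p = 0.706). The value became -0.052 when PKM2ΔMAC replicate 2 was left out and -0.12 when both replicates 2 were.

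Lpl (chr8:68880491-68907448), the lipase that releases fatty acids from circulating triglycerides, had the largest positive value of the members. It was at 1328, 1074 and 1083 TPM in PKM2FL/FL and at 1665, 1213 and 1833 TPM in PKM2ΔMAC. Replicates 1 and 3 of PKM2ΔMAC were above every PKM2FL/FL library, and replicate 2 lay among them. The log2 fold change was 0.37 with a standard error of 0.19 (interval, -0.11 to 0.85; edgeR, adjusted p = 0.615), a fold of 1.29 with bounds of 0.923 and 1.8. It was positive in all 17 other settings, from 0.23 without PKM2ΔMAC replicate 3 to 0.54 without PKM2ΔMAC replicate 2, and it was called in none of them, with 0.176 as the smallest adjusted p.

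Fabp5 (chr3:10012548-10016607), a carrier of fatty acids in the cytosol, had the widest interval. Its level was 589, 467 and 546 TPM in PKM2FL/FL and 556, 258 and 556 TPM in PKM2ΔMAC. The 258 TPM of PKM2ΔMAC replicate 2 stood below all other libraries, and the other 2 of that genotype lay within the PKM2FL/FL range. The log2 fold change was -0.29 with a standard error of 0.35 (interval, -1.18 to 0.61; adjusted p = 0.849). The value became 0.011 when PKM2ΔMAC replicate 2 was left out and -0.083 when both replicates 2 were. Fabp5 has copies in the genome, and transcripts of 5 other genes aligned to it over at least 300 bases at 90% identity or more. Those of them in the tables, Fabp5l2, Gm14328, Gm6100 and Gm6166, had at most 117 counts beside 13238 to 32362 of Fabp5, and how reads shared by the copies were counted is not given in the sources used here.

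Cd9 (chr6:125460266-125494791, minus strand), a tetraspanin of the cell membrane, was at 621, 499 and 578 TPM in PKM2FL/FL and at 638, 484 and 701 TPM in PKM2ΔMAC. The PKM2ΔMAC libraries were both the highest and the lowest. Its log2 fold change was 0.03 with a standard error of 0.18 (interval, -0.42 to 0.49; adjusted p = 0.973). Plin2 (chr4:86648386-86670060, minus strand), a protein of the lipid droplet coat, was at 499.5, 425 and 455 TPM in PKM2FL/FL and at 475, 368 and 465 TPM in PKM2ΔMAC. Again only PKM2ΔMAC replicate 2 lay outside the PKM2FL/FL range. The log2 fold change was -0.14 with a standard error of 0.13 (interval, -0.47 to 0.18; adjusted p = 0.797). The value became -0.013 when PKM2ΔMAC replicate 2 was left out and -0.073 when both replicates 2 were. For the remaining members, the values without that library and without both were 0.071 and 0.052 for Trem2, 0.06 and 0.031 for Tyrobp, -0.10 and -0.069 for Apoe and 0.20 and 0.11 for Cd9. Lpl was at 0.48 without both.

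**Figure D2:**
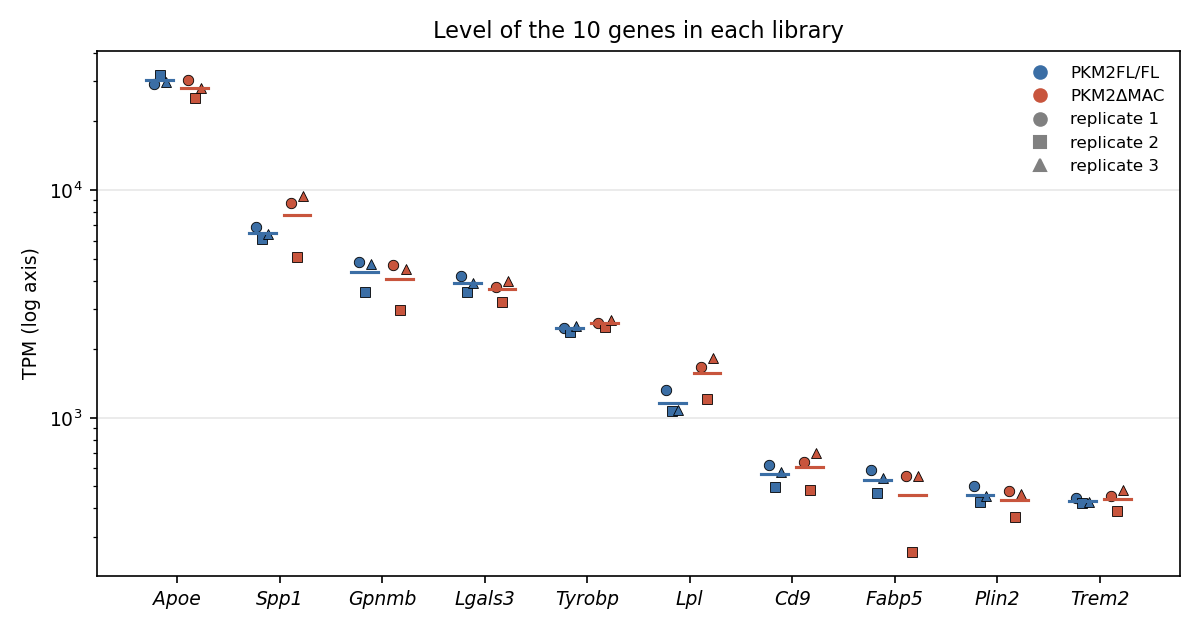
TPM (log axis) of the 10 genes in each library, ordered by mean; blue is PKM2FL/FL, red is PKM2ΔMAC, lines are the means of 3 libraries and the marker shape gives the replicate. Over all 6 libraries Apoe has the highest mean and Trem2 the lowest, and the square of PKM2ΔMAC replicate 2 is the lowest red point of every gene.

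Ordered by mean TPM, the members ran Apoe, Spp1, Gpnmb, Lgals3, Tyrobp, Lpl, Cd9, Fabp5, Plin2 and Trem2. They ranked 1, 11, 21, 23, 35, 62, 189, 244, 286 and 302 among all symbols by TPM averaged over the 6 libraries, a mean in which Lyz2, the top gene of every PKM2FL/FL library, is lowered by its PKM2ΔMAC values. The ranges over the libraries did not overlap between Apoe and Spp1, Spp1 and Gpnmb, Lgals3 and Tyrobp, Tyrobp and Lpl, and Lpl and Cd9. Those of Gpnmb and Lgals3, Cd9 and Fabp5, Fabp5 and Plin2, and Plin2 and Trem2 overlapped. Within single libraries, Cd9 was nevertheless above Fabp5 in 6 of 6, and Fabp5 was above Plin2 in 5. Gpnmb was above Lgals3, and Plin2 above Trem2, in 4 libraries each. Together the members took 2.93% to 3.94% of the counts of a library and 4.18% to 5.41% of the TPM, with both lowest values in PKM2ΔMAC replicate 2.

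**Figure D3:**
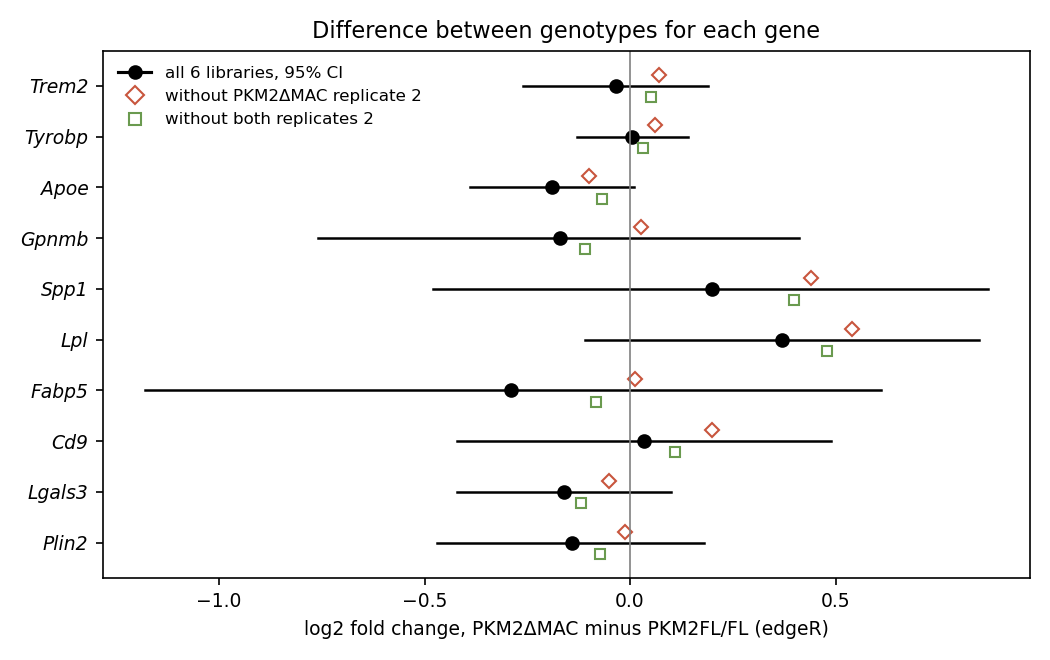
log2 fold change of each gene, PKM2ΔMAC minus PKM2FL/FL, from edgeR; black points and lines are the fit of all 6 libraries with its 95% confidence interval, and open symbols are the values without PKM2ΔMAC replicate 2 (diamonds) and without both replicates 2 (squares). Every interval includes 0, and every diamond lies to the right of its black point.

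Replicate 2 was the lowest library of PKM2ΔMAC for 10 of 10 members, and the lowest of PKM2FL/FL for 9 of 10, all but Apoe. Over all genes tested, replicate 2 was the lowest of its genotype for 37% in PKM2ΔMAC and for 34.3% in PKM2FL/FL, and for 16.5% in both, beside 9 of 10 members. Other genes of lipid-associated macrophages had the same lowest library: 23 of 33 further markers, among them Ctsb, Ctsd, Lipa and Cd63, were lowest in replicate 2 of both genotypes, as were 12 of 25 genes of lipid uptake, transport and efflux and 12 of 24 of lipid storage and hydrolysis. These lists share some genes, such as Cd36 and Lipa. Of 19 genes of the response to LPS and IFN-γ, 2 were. The summed TPM of markers of some other cell types was also lowest in these libraries. For osteoclast markers the sums were 631, 426 and 621 TPM in PKM2FL/FL and 762, 294 and 727 TPM in PKM2ΔMAC replicates 1, 2 and 3. Most of this was Atp6v0d2, a subunit of the proton pump, which with Ctsk also stands among the 33 further markers. For megakaryocyte markers the sums were 283, 242 and 272 TPM in PKM2FL/FL and 355, 186 and 299 TPM in PKM2ΔMAC, with the platelet chemokine gene Ppbp at 76.6 and 38.1 TPM in the libraries numbered 2. Erythroid markers, at 12.9 TPM or less, were also lowest there in both genotypes. No other marker sum was lowest in replicate 2 of both genotypes. The sum of macrophage markers was highest in replicate 2 of both genotypes, at 9333 and 10454 TPM. So were the sums of B cell markers (21.9 and 25.7 TPM) and of mast cell and basophil markers (15.7 and 21.4 TPM). Single macrophage markers went both ways. Adgre1 (1891 and 2635 TPM) and Csf1r (2111 and 2482 TPM) were highest in replicate 2 of both genotypes. Cd68, which also stands among the 33 further markers, was lowest there (2512 and 2174 TPM). Mertk was lowest only in that of PKM2ΔMAC (81.8 TPM). Stromal markers were highest in PKM2FL/FL replicate 2 (2294 TPM) but lowest in PKM2ΔMAC replicate 2 (2241 TPM). Neutrophil markers were lowest in PKM2FL/FL replicate 1 (68.6 TPM) and PKM2ΔMAC replicate 2 (323 TPM). The part of these cell types in the members' values was not tested. In PKM2ΔMAC replicate 2, log2(CPM + 0.1) lay below the PKM2FL/FL mean by between 0.06 for Lpl and 1.17 for Fabp5, with 0.66 for Gpnmb and 0.27 for Trem2. In PKM2FL/FL replicate 2 the distance of the 9 genes was smaller, up to 0.30 for Gpnmb, apart from Lpl, for which it was 0.13.

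**Figure D4:**
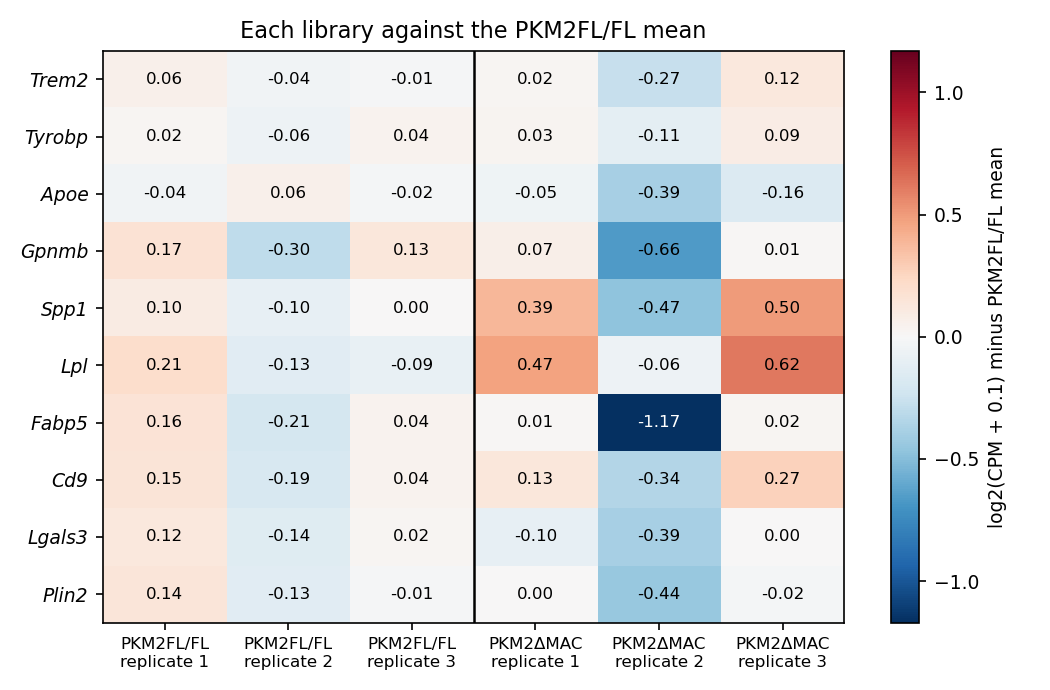
log2(CPM + 0.1) of each gene in each library minus the mean of the PKM2FL/FL libraries; red is higher and blue lower, and the number in each cell is the difference. The columns of replicate 2 are blue for 9 of 10 genes in PKM2FL/FL and for 10 of 10 in PKM2ΔMAC, with the deepest blue at Fabp5 (-1.17).

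With the mouse number as a replicate block, none of the 10 genes was called, and 4 had an unadjusted p under 0.05, beside 11% of all genes in the same fit. These were Gpnmb at -0.19 (edgeR, adjusted p = 0.343), Lgals3 at -0.16 (adjusted p = 0.358), Plin2 at -0.15 (adjusted p = 0.407) and Lpl at 0.35 (adjusted p = 0.439). Spp1 was at 0.14 in that fit (adjusted p = 0.855). Within the 3 same-numbered pairs, CPM was lower in PKM2ΔMAC in every pair for 5 members, Apoe, Gpnmb, Fabp5, Lgals3 and Plin2, and higher in every pair for 1, Lpl. Over all genes tested, 17.5% were lower and 17.3% higher in every pair. For Trem2, Tyrobp, Spp1 and Cd9 the pairs differed in sign.

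The spread between libraries of a genotype differed among the members. The biological coefficient of variation that edgeR estimated for single genes was 29.4% for Fabp5, 22.5% for Spp1, 20.01% for Gpnmb, 16.8% for Lpl and 15.7% for Cd9. Spp1 varied by 7.01% in CPM among the PKM2FL/FL libraries and by 32.3% among those of PKM2ΔMAC, where replicate 2 was low, and in PKM2FL/FL Gpnmb varied most, by 17.1%. The edgeR value was 11.9% for Plin2, 10.3% for Lgals3, 9.11% for Trem2, 8.53% for Apoe and 6.68% for Tyrobp. The median of the 9092 genes with a mean of at least 10 CPM was 6.79%, and 95.3% or more of these genes varied less than each of the first 5.

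Among the same 9092 genes, the 5 with the pattern over the 6 libraries most like that of Trem2 were Scpep1, Prkx, Ctsa, Cacfd1 and Map4k3, with a root mean square difference of centred log2(CPM + 0.1) of 0.015 to 0.022. The closest members were Tyrobp at 0.069 (rank 402), Lgals3 at 0.077 (rank 601) and Plin2 at 0.087 (rank 959), and the farthest was Fabp5 at 0.34 (rank 8776).

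Genes that act with Trem2 in its signalling were not called either, in 17 of 17 tested, with a median log2 fold change of -0.01. The most abundant were the phosphatase gene Ptpn6, at 354 to 385 TPM in PKM2FL/FL and 387 to 471 TPM in PKM2ΔMAC (log2 fold change 0.11, adjusted p = 0.575), and Grb2, an adaptor (-0.05, adjusted p = 0.79). Adam17, one of the proteases that shed Trem2 from the surface, was at 173 to 181 TPM in PKM2FL/FL and 191 to 212 TPM in PKM2ΔMAC without overlap (0.10, edgeR, adjusted p = 0.413). Hcst (DAP10), the other adaptor, was at 21.4 to 23.5 and 19.2 to 20.2 TPM, also without overlap (-0.26, adjusted p = 0.535), and Syk was at -0.09 (adjusted p = 0.648).

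Of 13 other genes of the Trem family and further partners of Tyrobp, 12 were tested and none was called. Cd300lb and Cd300ld, lipid-binding receptors, were the most abundant, with means of 318 and 129 TPM in PKM2FL/FL and 339 and 123 TPM in PKM2ΔMAC. Sirpb1a and Sirpb1b had log2 fold changes of 0.44 (adjusted p = 0.431) and 0.25 (adjusted p = 0.734), at means below 12 TPM. Treml2 was at -0.48 (adjusted p = 0.515) and Treml1 at -0.27 (adjusted p = 0.824).

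Among 33 further markers of lipid-associated macrophages, all tested, Cadm1 was the only one called. Cadm1 (chr9:47530173-47857637), a cell adhesion molecule of the immunoglobulin family, was at 54.4, 51.5 and 53.3 TPM in PKM2FL/FL and at 148, 166 and 163 TPM in PKM2ΔMAC. All PKM2ΔMAC libraries were above all PKM2FL/FL libraries, replicate 2 included. It was higher by 1.51 on the log2 scale with a standard error of 0.05 (edgeR, adjusted p = 3.79e-06), and it was called in every setting tried. Cadm1 lies on the same chromosome as Pkm (chr9:59656368-59679375). The median of the 33 was -0.03. Fth1, the ferritin heavy chain, was at -0.04 (adjusted p = 0.931) and the lysosomal protease gene Ctsb at -0.11 (adjusted p = 0.879), at means of 12906 and 7595 TPM in PKM2FL/FL. Cst7, an inhibitor of lysosomal proteases, was at 2.63 to 4.15 TPM in PKM2FL/FL and 5.57 to 7.42 TPM in PKM2ΔMAC without overlap (0.79, adjusted p = 0.355). The most negative values were those of Slc7a11, the cystine transporter (-0.18, adjusted p = 0.854), and the chemokine gene Ccl6 (-0.17, adjusted p = 0.91).

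Of 25 tested genes of lipid uptake, transport and efflux, Msr1 was the only one called. Msr1 (chr8:39581685-39642673, minus strand), the class A scavenger receptor that takes up modified lipoproteins, was at 77.3, 70.6 and 74.2 TPM in PKM2FL/FL and at 93.8, 106 and 106 TPM in PKM2ΔMAC, without overlap. It was higher by 0.39 on the log2 scale with a standard error of 0.06 (edgeR, adjusted p = 0.0371). With the replicate block the value was again 0.39, but the adjusted p was 0.0552. Leaving out single libraries gave adjusted p values between 0.0227 and 0.239, and the call was lost without any 1 of the PKM2FL/FL libraries and without PKM2ΔMAC replicate 3. It was also lost with non-robust estimation (adjusted p = 0.0638) and in the 3 fits on TPM (adjusted p = 0.0767, 0.0828 and 0.101). Cd36, a scavenger receptor and fatty acid transporter, was at 390.5, 338 and 384 TPM in PKM2FL/FL and at 489.7, 495 and 553 TPM in PKM2ΔMAC, also without overlap (0.39 with a standard error of 0.08, adjusted p = 0.167). It was called with the replicate block (0.40, adjusted p = 0.0234), with DESeq2 (adjusted p = 0.00201) and without both replicates 2 (adjusted p = 0.0236). Lrp8, a lipoprotein receptor, was at 0.43 (adjusted p = 0.367) with levels below 5 TPM. The abundant Pltp, a phospholipid transfer protein, and Lrp1, a receptor that binds Apoe, were at 0.01 (adjusted p = 0.991) and 0.05 (adjusted p = 0.858). The lowest values were those of Vldlr at -0.16 (adjusted p = 0.825) and Fabp3 at -0.15 (adjusted p = 0.823). The median of the list was -0.0029.

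None of 24 tested genes of lipid storage and hydrolysis was called, with a median of -0.01. Lipa, the acid lipase of the lysosome, and Soat1, which esterifies cholesterol, were the most abundant, at -0.03 (adjusted p = 0.944) and -0.08 (adjusted p = 0.886). The lipid droplet coat gene Plin4 was at 3.7 to 4.98 TPM in PKM2FL/FL and 5.49 to 8.77 TPM in PKM2ΔMAC without overlap (0.53, adjusted p = 0.4), whereas Plin3 was at -0.17 (adjusted p = 0.669). Acsl3, an acyl-CoA synthetase, was at 0.14 (adjusted p = 0.741) and Lpin1, a phosphatidate phosphatase, at -0.14 (adjusted p = 0.839).

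The receptors of osteopontin and Gpnmb had no call among 9 tested with all libraries, with a median of -0.01. Itgb1 and Itgb5, the most abundant, were at 0.01 (adjusted p = 0.966) and -0.03 (adjusted p = 0.916). Itgav, the integrin chain that pairs with both and with Itgb3, was at 0.16 (edgeR, adjusted p = 0.416). Itgb3 was at 55.3, 40.6 and 48.0 TPM in PKM2FL/FL and at 34.7, 21.2 and 34.1 TPM in PKM2ΔMAC, without overlap, at a log2 fold change of -0.75 with a standard error of 0.26 (edgeR, adjusted p = 0.451). Without PKM2ΔMAC replicate 2, Itgb3 was at -0.53 (adjusted p = 0.308), and without both replicates 2 it was called lower, at -0.64 (edgeR, adjusted p = 0.00216). Sdc4 was at 0.06 (adjusted p = 0.722) and Itga9 at -0.06 (adjusted p = 0.909).

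The MiT/TFE transcription factors, which are known to act on Gpnmb and other lysosomal genes, and their partners had no call among 8 tested with all libraries. Their median of -0.13 was the lowest of the lists, and 4 of 8 were lower without overlap, beside 8.32% of all genes tested. Rragc and Flcn, which control the factors' place in the cell, were at -0.16 (edgeR, adjusted p = 0.178) and -0.16 (adjusted p = 0.204). Rragc was at 259 to 270.2 TPM in PKM2FL/FL and 246 to 250.3 TPM in PKM2ΔMAC. Tfec was at -0.33 (adjusted p = 0.426), Rragd at -0.41 (adjusted p = 0.715) and Mitf at 0.15 (adjusted p = 0.461). For Rragd, PKM2ΔMAC replicate 2 was far below the other libraries. Its levels were 27.2, 23.6 and 28.9 TPM in PKM2FL/FL and 24.5, 13.3 and 24.6 TPM in PKM2ΔMAC replicates 1, 2 and 3. Without PKM2ΔMAC replicate 2, Tfec was called lower, at -0.46 (edgeR, adjusted p = 0.0331), and Mitf was called higher, at 0.20 (adjusted p = 0.0464), whereas without both replicates 2 neither was called (-0.42, adjusted p = 0.112, and 0.18, adjusted p = 0.122).

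Families of the members were described in the same way. None of 13 tetraspanins and partners was called, with Cd81 at 123 to 138 TPM in PKM2FL/FL and 114 to 127 TPM in PKM2ΔMAC (-0.19, edgeR, adjusted p = 0.252), Igsf8 at 0.14 (adjusted p = 0.412), Ptgfrn at 0.05 (adjusted p = 0.875) and Tspan3 at -0.12 (adjusted p = 0.673). The abundant Cd53 and Cd63 were at 0.01 (adjusted p = 0.964) and -0.08 (adjusted p = 0.912). None of 6 tested galectins and their binding protein was called, and Lgals1, at 2577 to 2928 TPM, was at 0.01 (adjusted p = 0.974). Lgals3bp was at -0.02 (adjusted p = 0.98), Lgals9 at -0.14 (adjusted p = 0.731) and Lgals8 at -0.05 (adjusted p = 0.697). Of 8 other fatty acid binding protein genes, 3 were in the tables and were tested. Fabp4, at 46.2 to 84.6 TPM, was lowest in replicate 2 of both genotypes like Fabp5 and had a log2 fold change of -0.11 (adjusted p = 0.942), and Fabp7, below 9 TPM, was at 0.45 (adjusted p = 0.574).

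**Figure D5:**
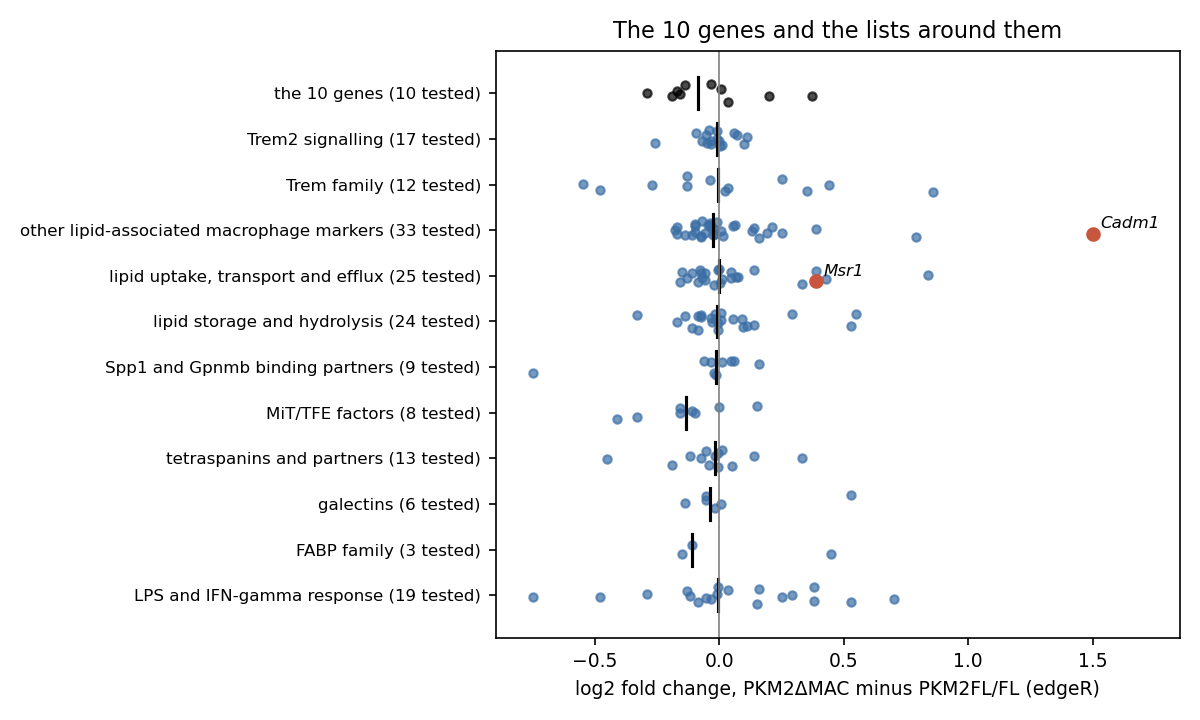
log2 fold change, PKM2ΔMAC minus PKM2FL/FL, of the genes tested in each list; black and blue points were not called, red points had an adjusted p under 0.05, and vertical bars are medians. Cadm1 (1.51) and Msr1 (0.39) are the only red points, and the medians lie between -0.13 and 0.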

How the data were processed

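RNA-seq data of BMDMs from 3 PKM2FL/FL and 3 PKM2ΔMAC mice were used. The deposited values were raw read counts for each symbol, with no scaling, and a separate table of TPM by the authors, which summed to between 999626 and 999691 per library. Per the labels, the libraries were made with a SMARTER kit, and the submitters' processing notes name FastQC 0.12.1, Trim Galore 0.6.10, HISAT2 2.2.1, SAMtools 1.19.2, Subread 2.0.6 and the build mm10. The annotation, the strand setting and the treatment of reads that match several genes are not given in the sources used here. Columns were matched to libraries by genotype and mouse number, with 0 columns left over. Nothing says that libraries of a genotype came from separate cultures beyond the mouse number, so p-values measure the spread between these libraries.

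Counts were compared with edgeR 4.0.16 in R 4.3.3: filterByExpr on genotype, TMM factors (0.98 to 1.041), genotype as the only term and the quasi-likelihood test with robust estimation. Benjamini-Hochberg adjustment ran over all 16516 genes tested, and an adjusted p under 0.05 was called. A 95% confidence interval of each log2 fold change came from the same fit. Single genes were also compared by an exact two-sided permutation test on log2(CPM + 0.1). The functions were tested on simulated data. In place of these settings, DESeq2 1.42.0 was run, TMM was replaced by RLE or by upper-quartile scaling, and the filter was left out or set to at least 10 counts in every library. Further alternatives were the mouse number as a replicate block, non-robust estimation, limma-trend (limma 3.58.1) on log2 of the TPM plus 1 or 0.1 with a minimum mean of 1 TPM, and plus 1 with no minimum, and each library left out in turn. Leaving out both libraries numbered 2, and the use of all alternatives on genes that are no members, were added after seeing the data. Where 1 library of a genotype was left out, the spread was pooled over the rest.

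Same-numbered libraries deviated together from their genotype means over 9092 genes (correlations of 0.26, 0.46 and 0.13 for the numbers 1, 2 and 3), all over 0.1, and the numbers were taken to pair the libraries. Of the 6 pairs with different numbers, PKM2FL/FL replicate 1 with PKM2ΔMAC replicate 3 had 0.23, above the 0.13 of the number 3, so the pairing is a hint only. The pairing comes from the data, since the labels do not say what a number marks. The members and the gene lists were chosen with earlier results of these data known. All members are named. From each list, called genes, the 2 with the highest TPM and, at a mean of at least 1 CPM, the 2 largest values in each direction are named, and Pkm and Lyz2 as checks. Genes like Trem2 were sought among those with a mean of at least 10 CPM. Gene positions came from GENCODE M21 (GRCm38, the same assembly as mm10), promoters from RefSeq on GRCm38.p6, and similar transcripts from blastn 2.17.0 (at least 300 bases).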

Additional observations from a re-analysis of the deposited data

How the results depend on the processing

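With the mouse number as a replicate block, 82 genes were called in place of 68, none of the members was called, and 4 members in place of 0 had an unadjusted p under 0.05, as did 11% of all genes in place of 9.83%. Over all genes, 289 were called with DESeq2, 120 with no filter on low counts, 41 and 34 with limma-trend on log2(TPM + 1) and log2(TPM + 0.1), and 36 on log2(TPM + 1) with no filter. Leaving out libraries gave between 22 and 299, the highest without PKM2ΔMAC replicate 2, and 212 without both replicates 2. The number of members called was 0 in all these settings but 2, and leaving out libraries gave 0 to 1, which was Spp1. The number of members with an unadjusted p under 0.05 was 1 with DESeq2, 1 with no filter and 1 in each of the 3 fits on TPM, and 0 to 4 with libraries left out. The share of all genes at this mark was taken only for the main fit (9.83%) and the replicate block (11%). The other counts of members at it are therefore given without a reading. Of the 170 values of members over the alternatives, 155 kept their direction and side of the threshold, 2 passed it and 13 changed sign. Trem2 was at 0.029 in all 3 fits on TPM, and -0.12 to 0.071 with libraries left out. With libraries left out, Tyrobp ranged from -0.039 to 0.06, Gpnmb from -0.31 to 0.027, Fabp5 from -0.47 to 0.011 and Cd9 from -0.097 to 0.20. Among other named genes, Itga9 was at 0.012, 0.013 and 0.012 and Lgals8 at 0.017, 0.017 and 0.017 in the fits on TPM. With libraries left out, their ranges and those of other genes that changed sign were Ccl6 -0.47 to 0.09, Fabp3 -0.26 to 0.0044, Fabp4 -0.3 to 0.13, Itga9 -0.17 to 0.017, Lgals1 -0.0027 to 0.022, Lpin1 -0.27 to 0.024, Ptgfrn -0.031 to 0.12, Slc7a11 -0.33 to 0.01 and Vldlr -0.3 to 0.061. The causes were not tested. Every member had at least 13238 counts in each library, and each genotype had 3 libraries. Whether depth or the number of libraries limited the calls was not tested.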

Other observations

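Among markers that are no members, Itgam, the integrin chain CD11b of myeloid cells, was at 136, 136 and 137 TPM in PKM2FL/FL and at 183, 206 and 191 TPM in PKM2ΔMAC, and was called higher (log2 fold change 0.43, edgeR, adjusted p = 0.00272). It was the only 1 of 10 macrophage markers called. Of the others, Adgre1 was at 0.26 without overlap (adjusted p = 0.236), C5ar1 at 0.10, Fcgr1 at 0.04, Spi1 at 0.01, Csf1r at -0.01, Cd14 at -0.05, Cd68 at -0.07, Mrc1 at -0.12 and Mertk at -0.16. The markers named here were chosen after their values were seen. The neutrophil granule genes S100a8, S100a9 and Ngp had log2 fold changes of 1.9, 1.99 and 2.9 without overlap between the genotypes, with adjusted p values of 0.213, 0.34 and 0.246. Col1a1, a collagen chain made by stromal cells, was at 1040 to 1218 TPM in PKM2FL/FL and at 1238 to 1538 TPM in PKM2ΔMAC (0.24, adjusted p = 0.562). Of the other stromal markers, Col1a2 was at 0.12, Dcn at 0.65, Lum at 0.37, Col3a1 at -0.15 and Pdgfrb at 0.22 without overlap (adjusted p = 0.0719), and none was called. Of 7 osteoclast markers tested, 6 had values above 0 and none was called. Dcstamp and Ocstamp, which act in cell fusion, were at 1.64 (adjusted p = 0.0627) and 1.62 (adjusted p = 0.19) without overlap, at levels below 6 TPM. Mmp9 was at 1.25, Oscar at 0.97, Acp5 at 0.54, Ctsk at 0.06 and Atp6v0d2 at -0.08. Markers of T and NK cells were all below 1 TPM.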
